A study of Homo sapiens with 6 samples.

Results

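Interferon-stimulated genes are genes that cells switch on when an interferon, a secreted alarm signal of virus infection, binds its receptor. A list of 52 such genes was followed in K562 cells with inducible PCBP1 overexpression (PCBP1 OE). The list holds RNA sensors, transcription factors, effectors that block viruses, ISG15 and the enzymes that attach or remove it, and antigen processing genes. The rule for members is their name and uses no measured value, but the list was drawn up with earlier results of these data known. All 52 were found by gene symbol among the 62252 genes of the deposited tables, and 44 of them passed a mean count above 10 and were tested together with 21045 genes in all.

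K562 is a human leukemia line with red cell features. The cells came from 1 clone (K562flox) with a recombination site at the AAVS1 safe harbor locus, into which a cassette with Flag-tagged PCBP1 under a tet-inducible promoter and a puromycin resistance gene was exchanged. Libraries of polyA RNA were made from 3 samples without doxycycline (−Dox, labelled as controls) and 3 with doxycycline (+Dox, labelled PCBP1 OE). The line with the cassette was a puromycin-selected mixture, not a single clone. Both groups carry the cassette, so effects of doxycycline and of Flag-PCBP1 cannot be told apart. The dose and the time of doxycycline for these libraries are not given in the sources used here. The labels do not say that replicates were separate cultures, so p-values measure only the spread between these samples. Summed counts were 84177316, 80104627 and 74766040 in −Dox replicates 1, 2 and 3, and 70905656, 82263502 and 82449808 in +Dox replicates 1, 2 and 3.

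In the textbook pathway, RIG-I and MDA5 bind foreign or misplaced RNA and signal through the adaptor MAVS to make type I interferon. Interferon acts through its receptor, JAK1 and TYK2 on a complex with STAT2 and IRF9, which binds the interferon-stimulated response element (ISRE) in front of their target genes. IRF factors read the same element. PCBP1 and its relative PCBP2 are RNA-binding proteins that are also known to bind MAVS and promote its breakdown.

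PCBP1 itself was at 248, 270 and 267 CPM (counts scaled to library size with TMM factors) in −Dox and at 1030, 936 and 1037 CPM in +Dox. Its log2 fold change was 1.94 (SE 0.06, adjusted p = 5.22e-10). The cassette and the endogenous gene cannot be separated in these gene sums. In bulk RNA, a change in how many cells express a gene and a change in RNA per cell cannot be told apart.

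Of the 44 members tested, 11 rose in +Dox and none fell, at an adjusted p under 0.05 with edgeR's quasi-likelihood test and Benjamini-Hochberg adjustment over all genes tested. That is 25% of the members, beside 15.8% of all genes called in either direction, 8.16% called higher and 7.68% called lower. The 11 were IFITM1, CMPK2, RSAD2, UBE2L6, IFI6, SAMD9, SAMD9L, USP18, IRF9, DHX58 and IFI35. With an absolute log2 fold change above 1 as well, 4 members passed (RSAD2, USP18, CMPK2 and SAMD9L), beside 0.737% of all genes called higher at that limit. The median log2 fold change was 0.17 over the members tested and 0.01 over all genes tested. On protein-coding transcripts only, an alternative chosen after seeing the data, it was 0.43 over 40 members and 0.005 over all genes. Signs were positive for 33 members and negative for 11, beside 10750 positive and 10295 negative over all genes tested. In CPM, all +Dox libraries stood above all −Dox libraries for 21 of the 44 members, or 47.7%, beside 17.4% of all genes, and below them for IFIT1 and MX1, or 4.55%, beside 15.8%.

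**Figure D1:**
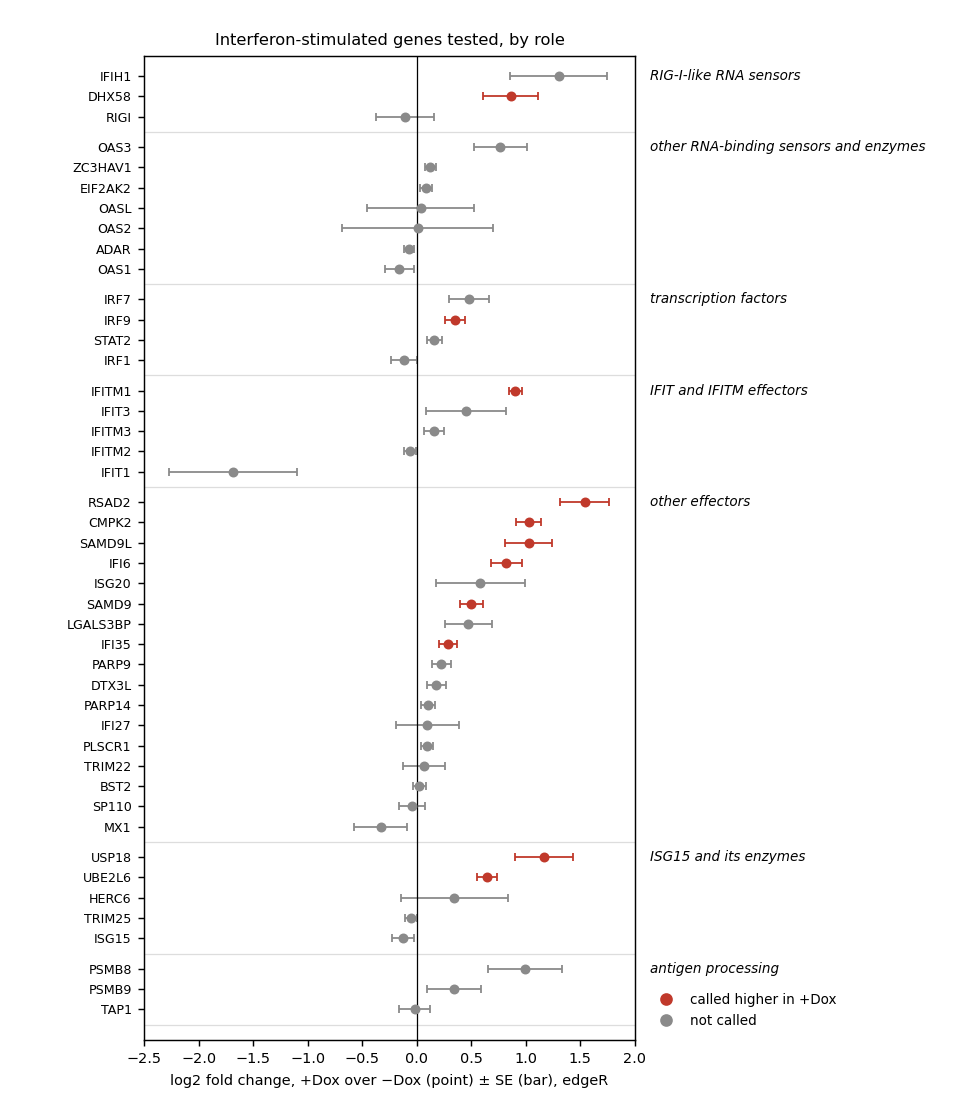
Log2 fold change of +Dox over −Dox (x axis) for each of the 44 members tested, grouped by role, with bars of 1 SE. The 11 members called higher (red) lie between 0.29 (IFI35) and 1.54 (RSAD2), no member was called lower, and IFIT1 at −1.68 has one of the widest bars.

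The levels of the members differed widely. On the TPM scale, which allows for transcript length, 9 members were above 10, 18 lay between 1 and 10, and 25 were under 1 in their mean over the 6 libraries. IFITM1, a membrane protein that hinders virus entry, was the most abundant member by far, with a mean of 1564 TPM. The next in order were BST2 (tetherin, which holds budding viruses at the cell surface) at 199.6 TPM, IFITM2 at 149 TPM, the phospholipid scramblase PLSCR1 at 74.6 TPM and IFITM3 at 33.0 TPM. BST2 lay between 191 and 209 TPM and IFITM2 between 118 and 168 TPM, so these neighbours in the order did not overlap, and neither did IFITM2 and PLSCR1 (70.7 to 78.6 TPM).

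The 52 members together summed to 1691, 1706 and 1720 TPM in −Dox and to 2726, 2589 and 2588 TPM in +Dox, a ratio of 1.54. IFITM1 held 72.1% of that sum. Without IFITM1 the sums were 591, 634 and 607 TPM in −Dox and 603, 601 and 598 TPM in +Dox, and the ratio of means was 0.984. IFITM1 thus carried the rise of the summed TPM. In CPM, which does not allow for length, the sums without IFITM1 were 804, 819 and 812 in −Dox and 863, 858 and 847 in +Dox, with a ratio of 1.05 and no overlap, so the direction of this remainder depends on the unit.

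Sequence in front of the members was examined for the ISRE, written here as GAAANNGAAA or, on the other strand, TTTCNNTTTC, in RefSeq windows of 300 bases (250 before to 50 after each gene start, GRCh38.p14). Windows were found for 43 of the 52 members and not for USP18, MX2, OASL, DHX58, OAS2, IRF7, TRIM22, IFIT2 and IFITM2. A match was present for 27 of the 43 members, or 62.8%, beside 4.38% of the 27305 genes in the table (3.57% of 35116 windows). By call, 4 of the 9 members called higher with a window held a match (IFITM1, RSAD2, SAMD9 and IFI6), as did 18 of the 28 members that were not called and 5 of the 6 that were not tested. The gamma-activated site, TTCNNNGAA, which reads the same on both strands and may overlap the first motif, was present for 15 of the 43 members, or 34.9%, beside 9.38% of all genes in the table. A match describes the letters of a window and does not show a bound site.

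Stretches around the matches are printed for the 4 called members and for 4 members that were not called although they carry the element (IFITM3 from the same cluster as IFITM1, ISG15, IFIT1 and BST2). Each is written 5′ to 3′ on the strand of its gene, with the ISRE matches in capitals.
IFITM1, called higher, chr11:313975-314068, plus strand: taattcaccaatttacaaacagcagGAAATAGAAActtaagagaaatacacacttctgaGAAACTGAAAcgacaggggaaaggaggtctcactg
RSAD2, called higher, chr2:6877607-6877666, plus strand: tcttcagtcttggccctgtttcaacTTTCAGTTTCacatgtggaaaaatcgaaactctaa
SAMD9, called higher, chr7:93118081-93118140, minus strand: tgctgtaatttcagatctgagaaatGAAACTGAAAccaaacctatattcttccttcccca
IFI6, called higher, chr1:27672251-27672373, minus strand: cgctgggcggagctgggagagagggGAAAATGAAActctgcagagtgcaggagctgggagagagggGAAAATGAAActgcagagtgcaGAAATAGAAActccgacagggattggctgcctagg
IFITM3, not called, chr11:320861-320937, minus strand: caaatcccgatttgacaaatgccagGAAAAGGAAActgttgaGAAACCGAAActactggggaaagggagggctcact
ISG15, not called, chr1:1013359-1013424, plus strand: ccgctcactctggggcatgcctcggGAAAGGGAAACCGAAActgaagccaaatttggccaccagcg
IFIT1, not called, chr10:89392482-89392554, plus strand: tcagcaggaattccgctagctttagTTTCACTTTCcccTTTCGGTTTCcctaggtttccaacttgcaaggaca
BST2, not called, chr19:17405720-17405785, minus strand: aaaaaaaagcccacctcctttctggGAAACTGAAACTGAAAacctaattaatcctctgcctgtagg
The windows of IFITM1, IFITM3, ISG15, IFIT1 and BST2 each held 2 matches and that of IFI6 held 3. Several matches were thus found whether the gene was called or not.

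Among the 3 RIG-I-like RNA sensors, DHX58 rose and the other 2 did not pass the test. That is 33.3% called higher, beside 8.16% of all genes. DHX58 (LGP2), which lacks the signalling domains of its relatives and tunes them, was at 0.603, 0.552 and 0.589 CPM in −Dox and at 0.987, 1.05 and 1.13 CPM in +Dox. Its groups were well apart, with a log2 fold change of 0.86 (SE 0.25, adjusted p = 0.035). The call is a marginal one, since it was lost in 10 of 14 alternative settings, among them each one that left out a library, with an adjusted p from 0.024 to 0.243. IFIH1 (MDA5), which detects long double-stranded RNA, had 13, 11 and 13 counts in −Dox and 25, 32 and 35 counts in +Dox. The groups did not overlap and the log2 fold change of 1.30 (SE 0.44) missed the threshold (adjusted p = 0.066), at some of the lowest counts among the members tested. RIGI (RIG-I) had 126, 78 and 160 counts in −Dox and 81, 130 and 130 counts in +Dox, with a log2 fold change of −0.11 (SE 0.27, adjusted p = 0.84). On coding transcripts only, which held 14% of its counts, it was 0.99 (SE 1.31, adjusted p = 0.65). Those coding counts were 12, 16 and 4 in −Dox and 0, 67 and 0 in +Dox, so this value rests on +Dox replicate 2 alone. The exons of RIGI share 43.2% of their bases with the gene model ENSG00000288684 on the same strand. That model itself changed by 0.73 (log2, adjusted p = 0.046), so counts may be split between these models.

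None of the 7 other RNA-binding sensors and enzymes was called. OAS3, which makes the 2-5A messenger that activates RNase L, came closest, at 1.23, 0.796 and 1.46 CPM in −Dox and 2.06, 2.29 and 1.58 CPM in +Dox (log2 fold change 0.77, SE 0.25, adjusted p = 0.053). It passed without −Dox replicate 3 (0.96). Well-counted members of this group lay near 0. EIF2AK2 (PKR), the kinase that halts translation on binding double-stranded RNA, had a log2 fold change of 0.08 (SE 0.05, adjusted p = 0.34) with means of 59.8 CPM in −Dox and 63.4 CPM in +Dox. ADAR, which edits adenosines in double-stranded RNA, had −0.07 (SE 0.04, adjusted p = 0.35) with means of 127 CPM in −Dox and 121 CPM in +Dox. ZC3HAV1 (ZAP), which binds CpG-rich viral RNA, had 0.12 (SE 0.05, adjusted p = 0.12), with all +Dox libraries above all −Dox libraries. The remaining members, OAS1, OAS2 and OASL, lay between −0.16 and 0.03, with OAS2 at −0.60 under the transcript length offset.

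Of the 4 transcription factors, IRF9 rose, or 25% called higher, beside 8.16% of all genes. IRF9, the DNA-binding partner of STAT2, was at 8.90, 7.69 and 7.47 CPM in −Dox and at 10.4, 9.91 and 10.3 CPM in +Dox, a log2 fold change of 0.35 (SE 0.09, adjusted p = 0.021). The groups did not overlap, and the call was lost in 5 of 14 alternatives, among them those without −Dox replicate 2 or 3 or without +Dox replicate 1 or 3 (log2 fold changes of 0.30 to 0.34). A gene model on the same strand, ENSG00000259529, covers 23.9% of its exon bases, and its own change was −0.71 (log2, adjusted p = 0.060). IRF7, the factor that amplifies interferon production, had 0.48 (SE 0.18, adjusted p = 0.098) and did not overlap between groups, and with −Dox replicate 3 left out it passed at 0.66 (adjusted p = 0.041). STAT2 had 0.16 (SE 0.07, adjusted p = 0.14). IRF1 had −0.12 (SE 0.12, adjusted p = 0.57).

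IFITM1 rose and its relatives next to it did not pass the test. IFITM1 was at 474, 513 and 501 CPM in −Dox and at 1002, 857 and 925 CPM in +Dox, a log2 fold change of 0.90 (SE 0.06, adjusted p = 9.02e-07). No other member was as abundant or had as small a p. IFITM2 was at 67.8, 76.5 and 71.9 CPM in −Dox and at 71.6, 65.5 and 70.1 CPM in +Dox, with a log2 fold change of −0.06 (SE 0.06, adjusted p = 0.54). IFITM3, which acts in endosomes, was at 10.0, 12.02 and 11.0 CPM in −Dox and at 13.1, 11.5 and 12.2 CPM in +Dox (log2 fold change 0.16, SE 0.09, adjusted p = 0.27, and −0.34 with the transcript length offset). On coding transcripts alone, which held 49.8% of its counts, IFITM2 had 0.32 (SE 0.13, adjusted p = 0.11), the opposite sign. The genes lie side by side on chromosome 11 (GRCh38), IFITM2 at 303655 to 309397, IFITM1 at 310041 to 315272 and IFITM3, on the other strand, at 319676 to 329475. The log2 ratio of IFITM1 to IFITM2 was 2.81, 2.75 and 2.80 in −Dox and 3.81, 3.71 and 3.72 in +Dox. That of IFITM1 to IFITM3 was 5.57, 5.42 and 5.51 in −Dox and 6.25, 6.22 and 6.25 in +Dox. Neither ratio overlapped between groups, and no test is given for them because the pairs were chosen after the values had been seen. The 3 mRNAs resemble each other: 21.3% of the 31-base words of IFITM1, 10.3% of those of IFITM2 and 28.9% of those of IFITM3 occur in another of the 3, so some reads could be shared between them.

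The IFIT genes, which bind viral RNA ends, had 48 counts or fewer in every library, and none was called. IFIT1 had 26, 18 and 30 counts in −Dox and 6, 14 and 3 counts in +Dox. It was thus lower in every +Dox library (log2 fold change −1.68, SE 0.59, adjusted p = 0.073), without passing the test. With +Dox replicate 2 left out, the change was −2.35 and passed (adjusted p = 0.042). IFIT3 had 32, 29 and 25 counts in −Dox and 40, 48 and 29 counts in +Dox (log2 fold change 0.45, SE 0.36, adjusted p = 0.47). IFIT2, with 10 counts or fewer per library, and IFIT5, with 1 or fewer, were below the limit for testing.

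Other effectors, the group with the most members tested, held 6 of the 11 members that rose. That is 6 of the 17 tested, or 35.3%, beside 8.16% of all genes called higher. RSAD2 (viperin) makes a chain-terminating nucleotide from CTP, and CMPK2 is the mitochondrial nucleotide kinase encoded beside it on the opposite strand. RSAD2 was at 0.662, 0.642 and 0.683 CPM in −Dox and at 2.33, 1.81 and 1.65 CPM in +Dox, the largest rise of any member (log2 fold change 1.54, SE 0.22, adjusted p = 0.00056). CMPK2 was at 4.93, 3.89 and 4.62 CPM in −Dox and at 8.32, 9.12 and 9.89 CPM in +Dox (log2 fold change 1.02, SE 0.11, adjusted p = 8.82e-05). The pair therefore rose together, and the starts of their gene models lie 1078 bases apart. That distance rests on upstream RSAD2 transcripts, since the transcript RSAD2-201 starts further away, at 6877777. Exons of CMPK2 and RSAD2 overlap on opposite strands over 8% of the bases of CMPK2 and 6.2% of those of RSAD2. The strand setting of the counting is not given in the sources used here.

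SAMD9 and SAMD9L, neighbours on chromosome 7 that restrict poxviruses and slow cell growth, also rose together. SAMD9 was at 7.84, 6.79 and 6.35 CPM in −Dox and at 8.98, 9.95 and 10.7 CPM in +Dox (log2 fold change 0.50, SE 0.10, adjusted p = 0.0062). SAMD9L was at 0.792, 0.745 and 0.857 CPM in −Dox and at 1.38, 1.81 and 1.68 CPM in +Dox (log2 fold change 1.02, SE 0.22, adjusted p = 0.0069). No −Dox library of either gene reached a +Dox library. IFI6, a membrane protein of the endoplasmic reticulum and mitochondria, was at 1.94, 1.95 and 1.85 CPM in −Dox and at 3.45, 3.23 and 3.46 CPM in +Dox (log2 fold change 0.82, SE 0.14, adjusted p = 0.0021). IFI35 was at 8.30, 8.41 and 8.85 CPM in −Dox and at 11.2, 9.72 and 10.2 CPM in +Dox (log2 fold change 0.29, SE 0.09, adjusted p = 0.040). IFI35 had the smallest change of the 11 and lost its call in 8 of 14 alternatives, including all but 1 of the 6 fits with a library left out (the fit without +Dox replicate 2 kept it).

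BST2 and PLSCR1, the most abundant of these other effectors, lay near 0. BST2 was at 154, 177 and 177 CPM in −Dox and at 177, 170 and 169 CPM in +Dox (log2 fold change 0.02, SE 0.06, adjusted p = 0.84). PLSCR1 was at 85.1, 84.7 and 79.5 CPM in −Dox and at 86.0, 86.5 and 93.2 CPM in +Dox (log2 fold change 0.09, SE 0.05, adjusted p = 0.27). MX1, the dynamin-like GTPase that is a common marker of the interferon response, had 82, 84 and 90 counts in −Dox and 67, 78 and 58 counts in +Dox (log2 fold change −0.33, SE 0.24, adjusted p = 0.42). With the transcript length offset, MX1 was at −1.57 (adjusted p = 0.19). The other effectors tested without a call, among them PARP9 at 0.22 and LGALS3BP at 0.47, lay between −0.05 and 0.58. IFI44, IFI44L and XAF1, and HERC5 of the ISG15 group, had 0 counts in every library. That allows up to 3 counts or 0.0424 CPM in the shallowest library. EPSTI1 (12 counts or fewer) and MX2 (18 or fewer) were below the limit for testing.

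ISG15 is a ubiquitin-like protein that interferon-treated cells attach to other proteins. In this group, ISG15 included, 2 of the 5 genes tested rose, or 40%, beside 8.16% of all genes called higher. UBE2L6, the conjugating enzyme, was at 14.6, 18.5 and 15.2 CPM in −Dox and at 27.6, 24.1 and 23.6 CPM in +Dox (log2 fold change 0.64, SE 0.09, adjusted p = 0.00055). USP18, which removes ISG15 and also restrains the receptor, was at 0.473, 0.501 and 0.576 CPM in −Dox and at 1.09, 1.37 and 1.02 CPM in +Dox (log2 fold change 1.17, SE 0.26, adjusted p = 0.0094). The pseudogene USP41 holds 33% of the 31-base words of USP18 and was given 4 counts or fewer in each library. ISG15 itself was at 6.70, 7.33 and 6.81 CPM in −Dox and at 6.82, 6.50 and 5.79 CPM in +Dox, so that its groups overlapped (log2 fold change −0.13, SE 0.10, adjusted p = 0.47). HERC5, listed in this group, had 0 counts in every library. Neither HERC6 (0.34, SE 0.49, and −0.13 with the transcript length offset) nor TRIM25 (−0.05, SE 0.06) passed the test. The log2 ratio of UBE2L6 to ISG15 was 1.12, 1.34 and 1.16 in −Dox and 2.02, 1.89 and 2.02 in +Dox. No test is given for this ratio, which was chosen after the values had been seen.

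No antigen processing member was called. PSMB8, a catalytic subunit of the immunoproteasome, was at 0.626, 0.526 and 0.281 CPM in −Dox and at 1.06, 0.733 and 1.08 CPM in +Dox, apart in every library but short of the threshold (log2 fold change 0.99, SE 0.34, adjusted p = 0.066). It passed without −Dox replicate 1 (1.24). Its partner subunit PSMB9 had a log2 fold change of 0.34 (SE 0.25, adjusted p = 0.42) and did not overlap between groups either. TAP1, which with TAP2 carries peptides into the endoplasmic reticulum, had −0.02 (SE 0.14, adjusted p = 0.95), and 0.59 (SE 0.26, adjusted p = 0.14) on coding transcripts only, which held 69.1% of its counts.

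**Figure D2:**
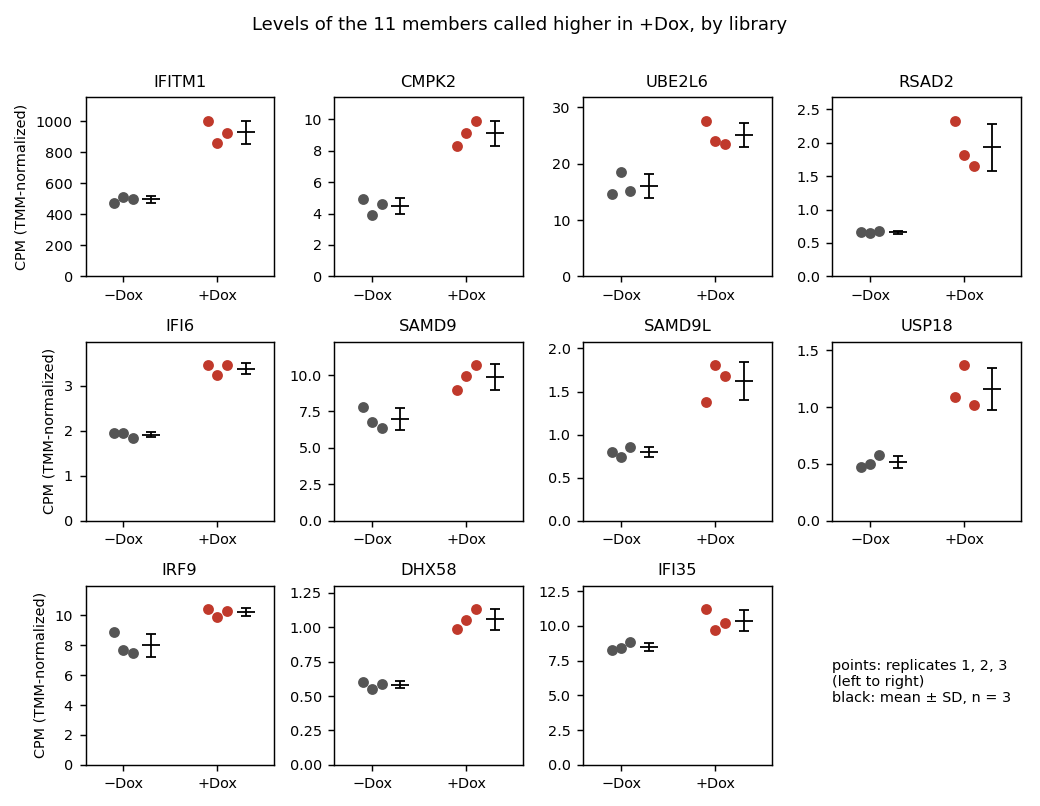
Levels in CPM (y axes, each from 0) of the 11 members called higher, with 1 point per library (replicates 1 to 3 from left to right) and the mean ± SD of 3 beside them. In all 11 the +Dox points lie above the −Dox points, from IFITM1 at 857 to 1002 CPM in +Dox down to DHX58 at 0.987 to 1.13 CPM.

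Salmon assigns reads to transcripts, and the members differed in how much of their signal lay on transcripts annotated as protein-coding. Of the 44 members tested, 18 had over 90% of their counts on such transcripts, 21 had 20% to 90%, and 5 had under 20% (OAS2, OAS1, MX1, OASL and RIGI). OAS1 had 99.7% of its counts on the retained-intron transcript OAS1-213 and at most 4 counts in a library on coding transcripts. MX1 had 92.4% on the retained-intron transcript MX1-232 and at most 5 coding counts in a library. OAS2 had 0 coding counts, with 91.1% of its counts on the nonsense-mediated decay transcript OAS2-207. Gene sums for these members therefore say little about their coding mRNA in either group.

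Members that rose were mostly on coding transcripts: 99.6% of counts for IFITM1, 99.9% for UBE2L6, 100% for IFI6 and SAMD9, 99.1% for SAMD9L, 95.5% for USP18 and 96.1% for IFI35. The share was 76.3% for DHX58, 74.4% for RSAD2, 58.9% for CMPK2 and 31.4% for IRF9. When only coding transcripts were summed, a choice made after seeing the data, 40 members were tested and 10 were called, all higher, beside 20.5% of the 13337 genes tested in that way called in either direction and 10.2% called higher. IRF9 (0.74, SE 0.32, adjusted p = 0.13) and DHX58 (0.92, SE 0.34, adjusted p = 0.087) were then not called. STAT2, with 39.2% of its counts on coding transcripts, was called higher there (0.39, SE 0.09, adjusted p = 0.017).

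**Figure D3:**
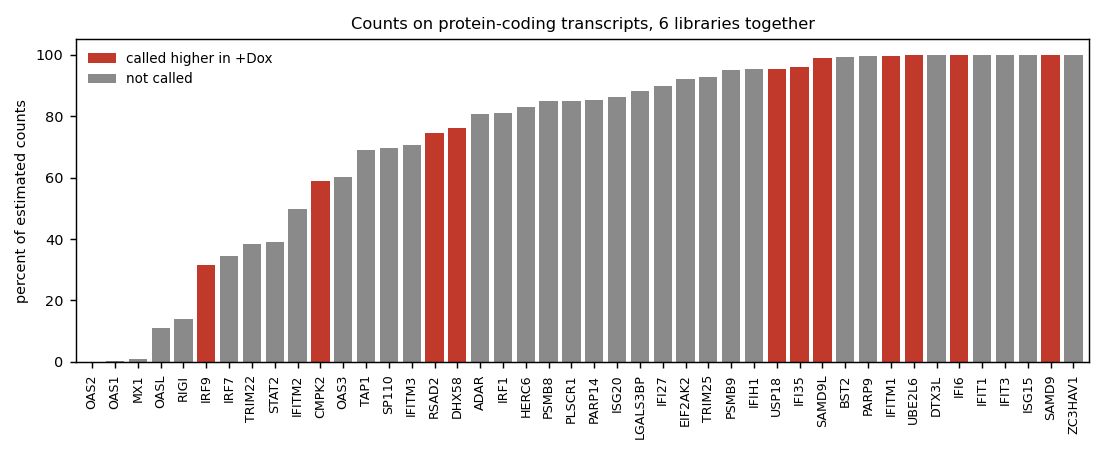
Percent of estimated counts on protein-coding transcripts (y axis, 6 libraries together) for each of the 44 members tested, in rising order. OAS2, OAS1 and MX1 stand at or near 0, and 7 of the 11 members called higher (red) stand above 90%.

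Transcript choice within RSAD2 was not stable. In −Dox, coding counts fell on transcripts that start between 6865557 and 6865727 on chromosome 2, near the start of CMPK2 (RSAD2-209 had 50.5, 10.3 and 11.9 counts). The transcript RSAD2-201, whose start at 6877777 follows the ISRE printed above, was given 93.4 counts in +Dox replicate 3 and 0 in the other 5 libraries. For SAMD9L, the transcript SAMD9L-201 held 89.6% ± 13.0 (SD, n = 3) of the gene's TPM in −Dox and 40.6% ± 14.8 in +Dox.

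ADAR has a longer form, p150, with an interferon-inducible start and a shorter constitutive one, p110. The p150 share of coding TPM was 12.9%, 20.7% and 12.04% in −Dox and 22.4%, 30.1% and 19.3% in +Dox. The means, 15.2% ± 4.76 and 23.9% ± 5.59 (SD, n = 3), differed by 8.71 percentage points, and the groups overlapped (exact permutation test, two-sided, p = 0.2, where 0.1 is the smallest possible). The share of ZC3HAV1 coding TPM on its long form was 73.5% ± 0.904 in −Dox and 70.0% ± 3.90 in +Dox (SD, n = 3, exact permutation test, two-sided, p = 0.3). In estimated counts the direction turned, at 85.7% ± 0.604 in −Dox and 86.9% ± 1.87 in +Dox (exact permutation test, two-sided, p = 0.5).

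Upstream of the members, 20 of the 21 interferon genes listed had 0 counts in every library. IFNK had 10 counts in −Dox replicate 1 and 2 or fewer in each other library. The receptors were present. IFNAR1 was at 103, 99.4 and 101 CPM in −Dox and at 113, 112 and 107 CPM in +Dox (log2 fold change 0.13, SE 0.05, adjusted p = 0.086). IFNGR1, the ligand-binding chain of the interferon-gamma receptor, was the only one of 9 receptor and kinase genes called. That is 11.1% called lower, beside 7.68% of all genes. IFNGR1 fell by 0.23 (SE 0.06, adjusted p = 0.016). The call was lost without −Dox replicate 2 and without +Dox replicate 1 or 2 (adjusted p up to 0.070).

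Across 97 genes of the pathway outside the members, 63 were tested, 3 rose and 7 fell, or 15.9% called, beside the 15.8% of all genes. None of these rises was called with the replicate block, without −Dox replicate 2 or without +Dox replicate 3, and 1 was called with the transcript length offset, while 7 pathway genes were called lower in each of these 4 fits. In those 4 fits, 8.94% to 11.8% of all genes were called in either direction. On coding transcripts only, 6 pathway genes were called higher and 8 lower, of 63 tested. In that fit 20.5% of all genes were called in either direction and 10.2% were called higher. The median log2 fold change of the pathway genes was 0.00 with all transcripts.

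Inhibitors of the pathway held the largest change of these lists. SOCS1, which blocks JAK kinases and is itself an interferon target, was at 7.66, 8.73 and 10.1 CPM in −Dox and at 3.40, 3.04 and 3.76 CPM in +Dox, with all +Dox libraries below all −Dox libraries. Its log2 fold change was −1.37 (SE 0.13, adjusted p = 1.85e-05). SOCS3 was at 33.7, 35.9 and 35.4 CPM in −Dox and at 26.7, 25.2 and 25.7 CPM in +Dox and fell by 0.44 on the log2 scale (SE 0.06, adjusted p = 0.00022). The phosphatase PTPN1 fell by 0.26 (SE 0.05, adjusted p = 0.0057). PCBP2 rose by 0.16 (SE 0.04, adjusted p = 0.024), a call lost in 8 of 14 alternatives, among them all 6 that left out a library (adjusted p up to 0.105). The other 8 inhibitors tested were not called. Of the 12 tested, 8.33% were called higher and 25% lower, beside 8.16% and 7.68% of all genes.

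In the MHC class I list, 2 of 15 genes tested rose and 2 fell, or 13.3% each. Among all genes, 8.16% were called higher and 7.68% lower. B2M, the light chain of MHC class I, rose by 0.21 (SE 0.06, adjusted p = 0.021), and the peptide-trimming enzyme ERAP1 rose by 0.20 (SE 0.06, adjusted p = 0.026). The call of B2M was lost in 4 of 14 alternatives (the replicate block and without −Dox replicate 1, −Dox replicate 2 or +Dox replicate 3), and that of ERAP1 in 7, among them all that left out a library except the one without −Dox replicate 1. TAP2 was at 47.3, 46.9 and 44.1 CPM in −Dox and at 31.6, 33.6 and 28.5 CPM in +Dox and fell by 0.56 (SE 0.07, adjusted p = 0.00011), next to TAP1, which did not pass the test. HLA-E fell by 0.31 (SE 0.07, adjusted p = 0.0076). HLA-B had at most 132 counts and HLA-C at most 199 in a library, so both were at low counts in both groups.

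**Figure D4:**
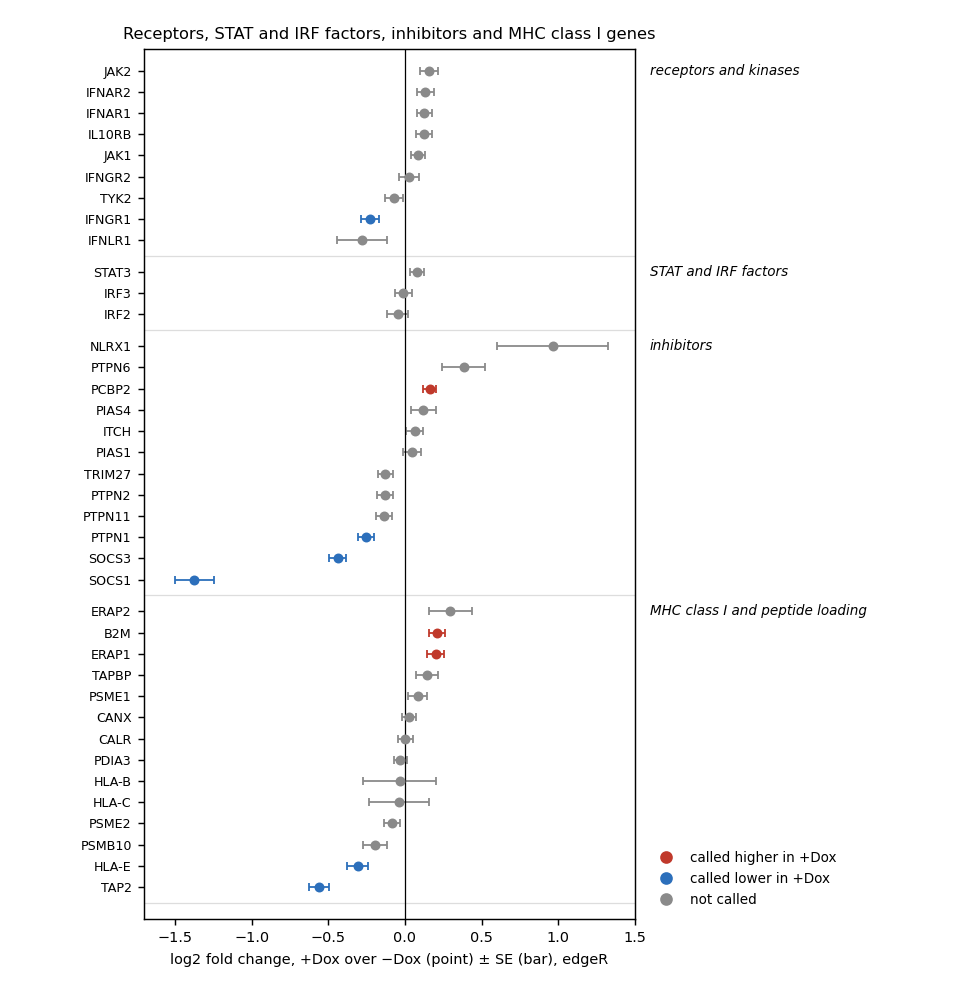
Log2 fold change of +Dox over −Dox (x axis, bars of 1 SE) for tested receptors and kinases, STAT and IRF factors, inhibitors and MHC class I genes. SOCS1 at −1.37 stands apart on the left, while IFNAR1 at 0.13 lies near 0 and was not called.

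The labelled cell type was checked against its markers. Red cell and K562 markers were abundant in every library, with the fetal globin HBG1 at 2181, 2524 and 2217 CPM in −Dox and at 2224, 1980 and 2156 CPM in +Dox (log2 fold change −0.12, SE 0.06, adjusted p = 0.22). The red cell factor KLF1 rose by 0.46 (SE 0.07, adjusted p = 0.0012) and TAL1 by 0.44 (SE 0.05, adjusted p = 8.34e-05). The embryonic globin HBZ fell by 0.40 (SE 0.07, adjusted p = 0.0021) and the transferrin receptor TFRC by 0.34 (SE 0.05, adjusted p = 0.00086). Markers of other blood cells were looked at beside the members, and their part in the rise of the members was not tested. The 3 plasmacytoid dendritic cell markers summed to 0.085, 0.027 and 0.039 TPM in −Dox and 0.391, 0.025 and 0.11 TPM in +Dox. CLEC4C was at 0 in 5 of 6 libraries. LILRA4 was the most abundant of the 3 in TPM and IL3RA in CPM. LILRA4 had 1, 0 and 0 counts in −Dox and 11, 4 and 3 counts in +Dox, below the limit for testing. Of the B cell markers, MS4A1 was at 0 in all libraries and CD79A had at most 11 counts in a library. The 5 monocyte and macrophage markers summed to 94.4, 109 and 132 TPM in −Dox and 73.4, 77.5 and 85.6 TPM in +Dox. LYZ made up 99.7% of that sum and fell by 0.47 (SE 0.10, adjusted p = 0.0084), while CD14 had at most 14 counts in a library. FCGR3A, the other marker of this list that was tested, had 69, 53 and 42 counts in −Dox and 25, 44 and 24 counts in +Dox. Its groups did not overlap in CPM, without a call (log2 fold change −0.81, SE 0.35, adjusted p = 0.14). The 5 T and NK cell markers were 98.9% CD3D, at 44.2 ± 12.1 TPM in +Dox and 49.9 ± 2.81 TPM in −Dox (SD, n = 3), with CD8A at 0 in all libraries. The 4 fibroblast markers summed to 0.619 ± 0.052 TPM in −Dox and 0.690 ± 0.298 TPM in +Dox, of which COL1A1 was 76.8%.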

How the data were processed

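Paired reads of polyA RNA (150 cycles) from 6 K562 libraries were quantified by the authors with Salmon 1.10.2, and the submitters' notes name hg38. The authors deposited estimated counts per transcript, not normalized. The deposited TPM values are scaled for effective length and library size. The index, strand and bias settings are not given in the sources used here.

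Of 252045 transcripts, 251612 were matched to GENCODE 44, and counts and TPM were summed for 62252 genes, the counts being rounded. The 433 unmatched transcripts were left out. The limit for testing was a mean above 10 counts. The test was edgeR 4.0.16 (glmQLFit and glmQLFTest with TMM, R 4.3.3), two-sided, with calls at an adjusted p under 0.05. Log2 fold changes are +Dox over −Dox. Replicates differed by more than counting noise and were kept apart. Members were mapped by symbol, and promoter windows came from RefSeq (GRCh38.p14). Every called member, the 5 most abundant members, undetected members and called pathway genes were named, with examples by p for the rest. Ratios, overlapping genes, single transcripts, markers and some uncalled pathway genes go beyond this rule, their values being known when they were chosen. Alternatives were DESeq2 1.42.0, RLE factors, other count limits, a transcript length offset, the replicate number as a term, each library left out and, chosen after seeing the data, coding transcripts only. The steps were tested on simulated data. Some genes of the pathway and marker lists entered the tests and list counts but are not reported or plotted here. Members and lists were chosen with earlier results of these data known. Python 3.11.15, pandas 2.3.3, numpy 2.4.6, scipy 1.17.1 and matplotlib 3.10.9 were used.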

Additional observations from a re-analysis of the deposited data

How the results depend on the processing

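Members with few counts, such as IFIH1, IFIT1 and PSMB8, had SEs of 0.44, 0.59 and 0.34 on the log2 scale, and the part of depth in these was not tested. In all 14 alternatives, 8 members were called higher (IFITM1, CMPK2, RSAD2, SAMD9, SAMD9L, IFI6, USP18 and UBE2L6). The share of all genes called higher in all 14 is not given here, so this count has no background beside it. The number of members called was 11 of 44 with RLE factors (16% of all genes called), 13 of 44 with DESeq2 (18.7%), 10 of 47 with a summed count above 10 (11.5%), 12 of 48 with any count (11%), 14 of 42 where every library had to hold 10 counts (19.7%), 10 of 44 with the transcript length offset (8.94%) and 8 to 11 with 1 library left out (10.7% to 15.8%). DESeq2 gave no adjusted p for some members, IFIH1, OAS2, OASL and HERC6 among them, and these still count in its 44. Its share of all genes is likewise taken over all 21045 genes entered. Without +Dox replicate 2, IFIT1 was called lower (−2.35, adjusted p = 0.042, from 0.042 to 0.203 over its alternatives). OAS3 and PSMB8 were each called in 4 alternatives (among them without −Dox replicate 3 for OAS3 and without −Dox replicate 1 for PSMB8), IFIH1 in 2, IRF7 in 1 and STAT2 in 1. WARS1 was called lower in 3, among them the fit without −Dox replicate 2. IRF9 was called in 9 alternatives, IFI35 in 6 and DHX58 in 4, and each lost its call in 4 or more of the fits with 1 library left out. All genes called numbered 1882 with the transcript length offset, and between 2267 and 3313 with 1 library left out. Same-numbered −Dox and +Dox samples did not deviate together (r = −0.07, −0.16 and 0.02), and differently numbered samples had r from −0.13 to 0.19. With 3 libraries per group, these values cannot settle whether the numbers pair samples. With the replicate block 9 members, 7 pathway genes and 2490 genes in all were called. The median of the members was 0.43 with coding transcripts only. The summed level of the members had a ratio of 1.36 in CPM, and 1.05 without IFITM1. The difference in ZC3HAV1 long form share turned from −3.5 percentage points in TPM to 1.18 with estimated counts. The cause of these shifts was not tested. A share for the OAS1 p46 form could not be given, since its coding transcripts had 0 TPM in some libraries.

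Among the members, only genes that were not called changed sign. Outside the members, STING1 was at 0.38 with coding transcripts only and between −0.067 and 0.019 with 1 library left out. Coding transcripts alone also moved TYK2 from −0.07 to 0.64 and GBP2 from 0.40 to −0.80, without a call. In that fit PTPN6 (0.92, adjusted p = 0.026) and TAPBP (0.38, adjusted p = 0.015) gained a call. With the transcript length offset, log2 fold changes became 0.18 for RIGI, −0.60 for OAS2, 0.014 for IRF1, −0.34 for IFITM3, −0.023 for TRIM22, 0.037 for SP110, −0.13 for HERC6 and 0.032 for TRIM25. With coding transcripts only they became 0.99 for RIGI, 0.32 for IFITM2, −0.025 for TRIM22, 0.26 for SP110 and 0.59 for TAP1. OAS2 was at −0.002 with RLE factors, at −0.001 with DESeq2 and with a summed count above 10, and at −0.10 with the replicate block, where OASL was at −0.014. With 1 library left out, the range was −0.35 to 0.20 for RIGI, −0.23 to 0.48 for OAS2, −0.18 to 0.34 for OASL, −0.065 to 0.32 for IFI27, −0.018 to 0.12 for TRIM22, −0.041 to 0.057 for BST2, −0.10 to 0.027 for SP110 and −0.069 to 0.015 for TAP1.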

Other observations

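Of 19 adaptors, kinases and other genes of nucleic acid sensing, 15 were tested and none was called, with a median log2 fold change of 0.06. RNF135 had 0 counts in every library, ZBP1 at most 1 and TLR9 at most 2. MAVS, the adaptor of RIG-I and MDA5, was at 47.3, 45.8 and 47.7 CPM in −Dox and at 53.1, 47.8 and 50.3 CPM in +Dox (log2 fold change 0.10, SE 0.05, adjusted p = 0.25). STING1, the adaptor of DNA sensing, had −0.03 (SE 0.06, adjusted p = 0.78). On coding transcripts only, which held 51% of its counts, STING1 was called higher (0.38, SE 0.09, adjusted p = 0.013). TBK1, the kinase both routes share, had 0.11 (SE 0.05, adjusted p = 0.13). The DNA sensor CGAS had between 6 and 41 counts in a library, with overlapping groups.

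Among 13 targets better known from interferon-gamma, 8 were tested. Signs were negative for 6 of the 8, beside 10295 negative and 10750 positive over all genes tested. ICAM1, an adhesion molecule, was the only one called, or 12.5% called lower, beside 7.68% of all genes. It was at 14.4, 13.2 and 15.2 CPM in −Dox and at 11.1, 11.5 and 11.0 CPM in +Dox and fell by 0.35 (SE 0.08, adjusted p = 0.0083). WARS1, which held 91.3% of the summed TPM of this list, had −0.17 (SE 0.06, adjusted p = 0.094). CXCL10, with 2 counts or fewer per library, was below the limit for testing. Whether this list differed from the members was not tested.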
